A study of Homo sapiens with 24 samples.

Results

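The mature miRNAs of the miR-106a-363 and miR-106b-25 clusters, the paralogs of the miR-17-92 cluster, were followed through small RNA libraries of OV90 cells. The members were chosen by name, with earlier results of these data known. From miR-106a-363 they are hsa-miR-106a-5p, hsa-miR-18b-5p, hsa-miR-20b-5p and hsa-miR-363-3p. From miR-106b-25 they are both arms of its 3 hairpins, namely hsa-miR-106b-5p, hsa-miR-106b-3p, hsa-miR-93-5p, hsa-miR-93-3p, hsa-miR-25-3p and hsa-miR-25-5p. These are 10 of the 2656 mature miRNAs in the deposited table. The filter on low counts (1 CPM, the count scaled to library size, or more in 4 or more libraries) left 905 miRNAs to test, and 9 of the 10 members were among them. The tenth, miR-18b-5p, is described by its counts.

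OV90 is an established epithelial ovarian cancer cell line. It carried an inducible shRNA, either a negative control (shNeg), one against RELA or one against RELB, and every culture, controls included, received 1 µg/ml doxycycline for 72 h. Cells with each shRNA were grown either attached or as spheroids, which the study used as a model of tumor-initiating cells, and each of the 6 groups has 4 libraries. The GEO genotype field calls the shNeg samples "Wildtype", while their titles name the negative control. Adherent cells were kept in RPMI with tetracycline-free fetal calf serum. Spheroids were grown on ultra-low attachment plastic in DMEM-F12 with serum replacement, EGF and FGF, so culture form and medium cannot be told apart. MiR-seq reads no mRNA, so neither the knockdown nor the identity of the cells was checked here. Nothing in the labels says that replicates were separate cultures, so p-values measure only the spread between these libraries, which may be technical.

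A miRNA hairpin is cut into a 5p and a 3p arm, and an arm loaded into the silencing complex pairs with messenger RNAs through its seed, bases 2 to 8. The miR-17 family, to which miR-106a-5p, miR-20b-5p, miR-106b-5p and miR-93-5p belong, is known for repressing inhibitors of the cell cycle such as CDKN1A, and miR-106b-25 lies in MCM7, a gene of the replication helicase that E2F factors switch on. RELA is the main transactivating subunit of the classical NF-κB pathway and RELB of the alternative one.

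The sequences are shown because the clusters share seeds across chromosomes, so that reads of some members are separable from their relatives by only a few bases. All are RefSeq entries of GRCh38.p14, written 5′ to 3′, and the capitals mark the seed. Both clusters carry the AAAGUGC seed, which these 4 members share with, among others, miR-17-5p and miR-20a-5p of miR-17-92.
hsa-miR-106a-5p: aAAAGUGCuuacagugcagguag
hsa-miR-20b-5p: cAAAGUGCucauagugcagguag
hsa-miR-106b-5p: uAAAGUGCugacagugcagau
hsa-miR-93-5p: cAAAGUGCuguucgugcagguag
hsa-miR-17-5p: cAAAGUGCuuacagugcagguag
hsa-miR-20a-5p: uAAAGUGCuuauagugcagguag
The AUUGCAC seed joins miR-363-3p, at one end of miR-106a-363, with miR-25-3p, and with miR-92a-3p and others outside the member list.
hsa-miR-363-3p: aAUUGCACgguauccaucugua
hsa-miR-25-3p: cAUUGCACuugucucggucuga
The remaining 4 members were the only ones of the list with their seeds, and miR-106b-3p, miR-93-3p and miR-25-5p were the only miRNAs of the sequence table with theirs.
hsa-miR-18b-5p: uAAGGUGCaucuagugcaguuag
hsa-miR-106b-3p: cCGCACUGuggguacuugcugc
hsa-miR-93-3p: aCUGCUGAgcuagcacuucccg
hsa-miR-25-5p: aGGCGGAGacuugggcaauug

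Counting positions from the 5′ end of the member, miR-106a-5p differed from miR-17-5p by A1C alone, miR-18b-5p from miR-18a-5p by U20A alone, and miR-20b-5p from miR-20a-5p by C1U and C10U. How the authors' counting treated a read with a sequencing error or a trimmed end at these positions is not given in the sources used here, so the counts of miR-106a-5p, miR-20b-5p and miR-18b-5p are uncertain to that extent. Within miR-106b-25, miR-93-5p differed from miR-106b-5p at 5 of the 21 bases compared (C1U, U11A, U12C, C13A and G20A).

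In GENCODE v44 (GRCh38), the 6 hairpins of miR-106a-363 span 901 bases of the minus strand at chrX:134169378-134170278, and each overlaps an exon of all 3 transcripts of the lncRNA gene ENSG00000283638. The order of transcription is MIR106A, MIR18B, MIR20B, MIR19B2, MIR92A2 and MIR363. The 3 hairpins of miR-106b-25 span 515 bases of the minus strand at chr7:100093560-100094074, in the order MIR106B, MIR93 and MIR25. They lie in introns of each of the 5 protein-coding MCM7 transcripts, and MIR93 overlaps an exon of 1 of the 13 MCM7 transcripts of any kind.

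Library totals ran from 3797175 to 8283549 counts in adherent culture and from 959141 to 3580931 in spheroid culture. Spheroid shNeg replicate 1 stood apart, with a count on 432 miRNAs where the 3 others of its group had as many as 885. Values without it are given beside the main results that use it. A count of 0 allows up to 3 counts, worth 0.496 to 0.8001 CPM in adherent and 0.860 to 2.29 CPM in spheroid libraries, for counting error only.

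Summed over their listed members, the clusters differed in level by 2 to 3 orders of magnitude on the CPM scale. The listed members of miR-106a-363 include no arm of MIR19B2 or MIR92A2, so their sum is not that of the whole cluster. miR-92a-3p, which MIR92A2 and a hairpin of miR-17-92 both encode, had group means of 29573.2 to 59361.5 CPM. What part of it came from MIR92A2 cannot be told, so the levels of the whole clusters were not compared. Whether different miRNAs were captured equally well was not tested. All CPM values here and below were scaled by the trimmed mean of M values (TMM), and the mature members are 21 to 23 bases long. miR-93-5p was by far the most abundant, with group means of 28199 to 75717 CPM, and it made up 73.4% to 80.9% of the counts of miR-106b-25. miR-25-3p followed with group means of 6637 to 16122 CPM, and miR-106b-3p with 1273 to 8229 CPM. miR-106a-5p, miR-20b-5p and miR-363-3p never exceeded a group mean of 174 CPM. The sum of miR-106b-25 over that of miR-106a-363 was 243 in adherent shNeg libraries (geometric mean, 214 to 274, n = 4). Together the members took 6.68% ± 0.335 (SD, n = 4) of the counts of adherent shNeg libraries and 9.04% ± 1.32 of spheroid shNeg libraries.

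**Figure D1:**
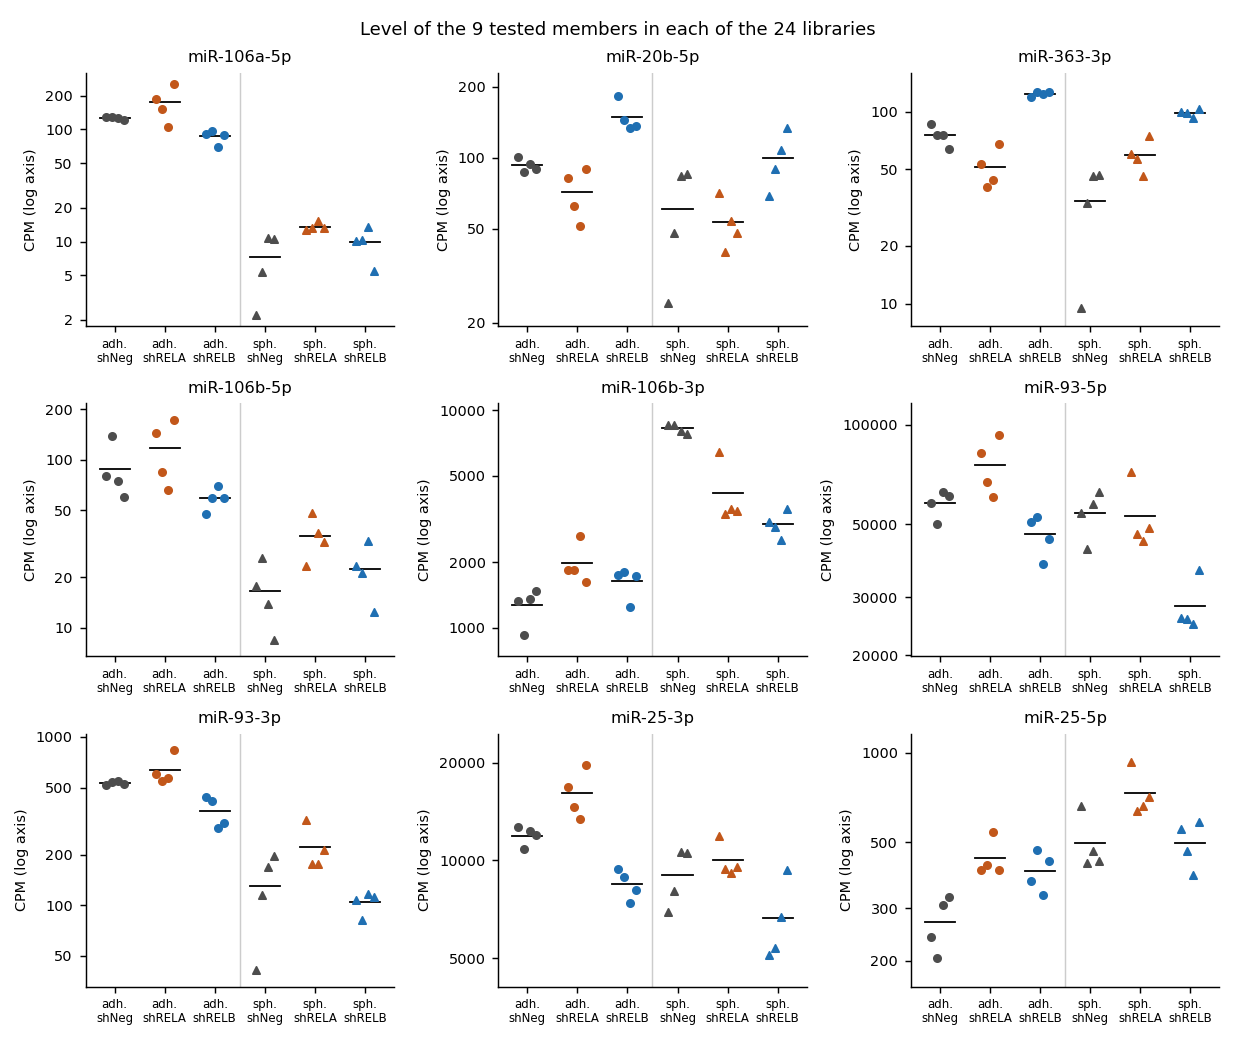
CPM (TMM-scaled, log axis) of the 9 tested members in each library, by culture (circles adherent, triangles spheroid) and shRNA, with lines at the means of 4 libraries. The adherent libraries of miR-106a-5p lie between 69.4 and 253 CPM and its spheroid libraries between 2.20 and 15.2, while miR-106b-3p is highest in spheroid shNeg libraries, at 7779 to 8578 CPM.

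The first question was how the members differ between spheroid and adherent culture in control cells. In spheroid shNeg cells, miR-106a-5p fell 17-fold, miR-106b-5p 5.42-fold, miR-93-3p 4.07-fold and miR-363-3p 2.19-fold, whereas miR-106b-3p rose 6.46-fold. Thus 5 of the 9 tested members passed the test (FDR below 0.01 by edgeR's quasi-likelihood test with Benjamini-Hochberg adjustment, and fold change above 2), 4 of them lower and 1 higher. Of all 905 miRNAs, 42.2% passed in this comparison, 21.3% higher and 20.9% lower. Of those calls 50.5% were higher, and 61.8% with scaling by library totals instead. In bulk libraries, fewer cells of a type and less RNA per cell cannot be told apart.

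Among the miR-106a-363 members, miR-106a-5p, the first hairpin of the cluster, was at 130, 128.5, 127.1 and 121.2 CPM in the adherent shNeg libraries and at 2.20, 5.35, 10.8 and 10.5 CPM in the spheroid ones. Every spheroid library was far below every adherent one, on 3 to 21 counts a library. The log2 fold change was -4.09 (SE 0.334, FDR = 2.46e-12), and -3.80 without spheroid shNeg replicate 1. miR-363-3p, the last hairpin, was at 86.4, 75.5, 75.5 and 63.8 CPM in adherent and 9.54, 33.6, 46.2 and 47.0 CPM in spheroid libraries. These groups did not overlap either, although replicate 1 was the lowest spheroid library by more than 3-fold. Its log2 fold change of -1.13 (SE 0.280, FDR = 8.45e-04) became -0.83 without that replicate, which is short of the fold threshold, and the call was also lost when only the groups compared were fitted, with library totals and with the stricter filter. miR-20b-5p, which lies between them, was at 100.8, 87.2, 94.2 and 89.9 CPM in adherent and 24.2, 48.1, 83.6 and 85.6 CPM in spheroid libraries. The groups were separate by a narrow margin and the difference of -0.62 (SE 0.279, FDR = 0.0577) did not pass the test. It was -0.35 without spheroid shNeg replicate 1 and passed without spheroid shNeg replicate 4 (-1.02, FDR = 0.00349).

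The arms of miR-106b-25 went different ways. miR-106b-5p, the arm with the miR-17 family seed, was at 80.4, 138.7, 75.3 and 60.5 CPM in adherent and 17.6, 26.0, 13.9 and 8.42 CPM in spheroid shNeg libraries. miR-106b-3p, from the same hairpin, was at 1325, 926, 1359 and 1485 CPM in adherent and 8550, 8578, 8007 and 7779 CPM in spheroid libraries. Neither pair of groups overlapped, with log2 fold changes of -2.44 (SE 0.355, FDR = 4.62e-07) for the 5p arm and 2.69 (SE 0.210, FDR = 7.39e-13) for the 3p arm. Without spheroid shNeg replicate 1 they were -2.48 and 2.67. The 3p arm took 93.02% ± 4.11 (SD, n = 4) of the counts of the MIR106B hairpin in adherent and 99.8% ± 0.0807 in spheroid shNeg libraries. The 5p arm had 12 to 34 counts in each spheroid shNeg library.

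The MIR93 hairpin showed the opposite change of its arms' ratio. miR-93-3p, the minor arm, was at 521, 538, 549 and 522 CPM in adherent and at 41.1, 115, 169 and 196 CPM in spheroid shNeg libraries. The groups lay well apart, at a log2 fold change of -2.03 (SE 0.284, FDR = 2.25e-07), and -1.73 without spheroid shNeg replicate 1, the lowest library. miR-93-5p, the major arm, was at 57930, 50040, 62470 and 60910 CPM in adherent and 54150, 41980, 57640 and 62640 CPM in spheroid libraries. These groups overlapped fully, with a log2 fold change of -0.096 (SE 0.175, FDR = 0.658). The 3p share of MIR93 counts was 0.919% ± 0.0976 in adherent and 0.239% ± 0.110 in spheroid libraries, or 0.293% without replicate 1. For MIR25, whose 3p arm carries the AUUGCAC seed, miR-25-3p differed by -0.40 (SE 0.179, FDR = 0.0531) and miR-25-5p by 0.88 (SE 0.199, FDR = 3.14e-04), which passed on FDR and not on fold. miR-25-5p was at 241, 205, 308 and 328 CPM in adherent and 664, 425, 469 and 435 CPM in spheroid libraries, without overlap. Without spheroid shNeg replicate 1, its highest spheroid library, it was at 0.71, and miR-25-3p at -0.29. With each library left out miR-25-5p ran from 0.54 to 0.99, with FDRs up to 0.0312. It passed on both thresholds with a mean minimum of 10 CPM (1.28), median-ratio size factors (1.004), library totals (1.31), DESeq2 (1.004) and only the groups compared (1.13).

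**Figure D2:**
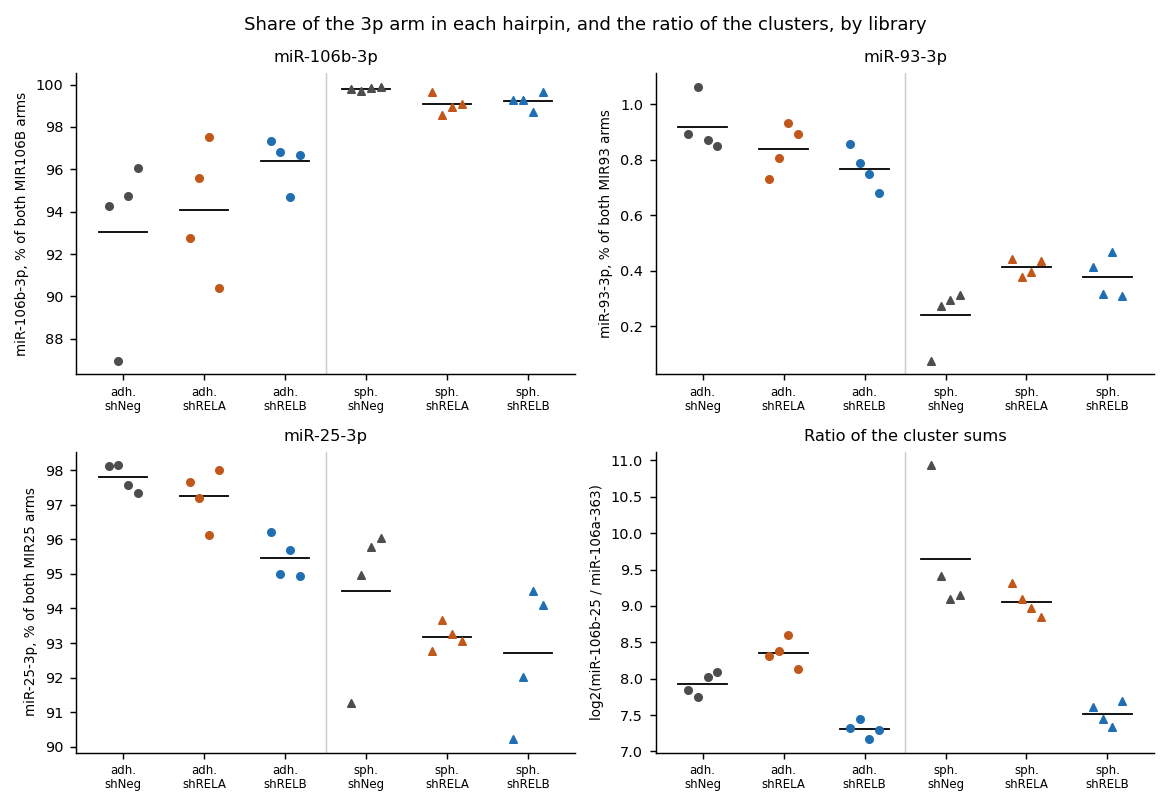
Share (%) of the 3p arm in the counts of both arms of each hairpin of miR-106b-25, and log2 ratio of the summed CPM of the listed members of the clusters, per library (circles adherent, triangles spheroid) with lines at the means of 4 libraries. The vertical axes do not start at 0. The MIR106B share is 98.6% to 99.9% in spheroid and 87.0% to 97.6% in adherent libraries, and the MIR93 share is 0.0758% to 0.468% and 0.679% to 1.06%.

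GC content moved with the change between cultures. The 795 tested miRNAs with a sequence in the table (87.8% of those tested) had median log2 fold changes in shNeg cells of -1.98 below 35% GC, -1.67 at 35 to 45%, -0.74 at 45 to 55%, 0.82 at 55 to 65% and 2.25 at 65% and over. The lower members miR-363-3p, miR-106b-5p and miR-106a-5p have 40.9%, 42.9% and 43.5% GC, and the higher miR-106b-3p has 63.6%. miR-93-3p, with 59.1% GC, was lower where the median of its GC class was higher. In a fit with GC-dependent offsets, chosen after seeing the data, the log2 fold changes were -3.07 for miR-106a-5p, -1.26 for miR-106b-5p, -2.38 for miR-93-3p and 2.15 for miR-106b-3p, all still past the test, and 0.0048 for miR-363-3p (FDR = 0.99). What part base composition or library preparation has in these changes was not tested further.

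**Figure D3:**
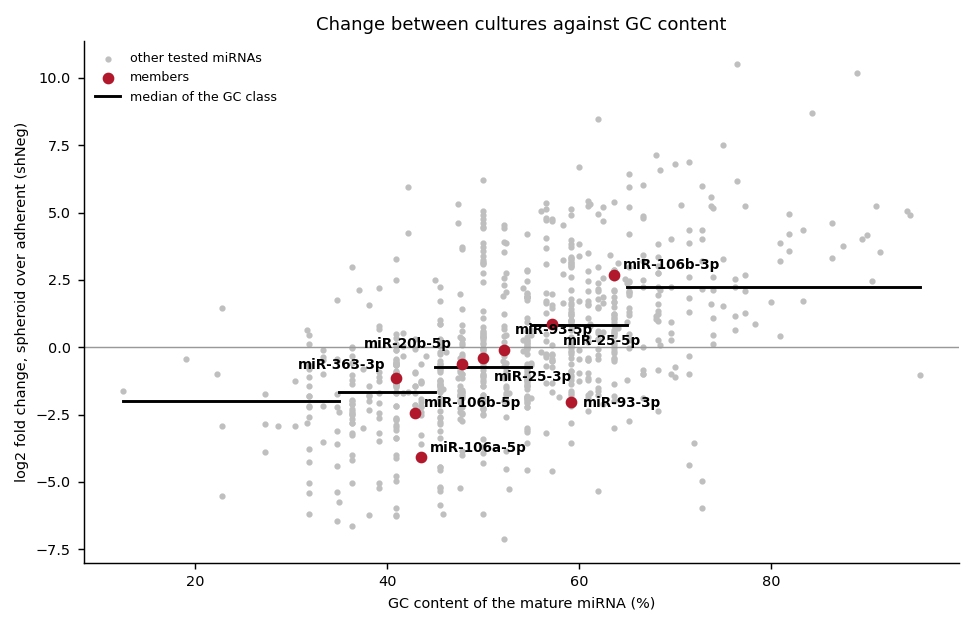
log2 fold change of spheroid over adherent shNeg libraries against the GC content (%) of the mature miRNA, for 795 tested miRNAs (grey) and the 9 tested members (red), with lines at the median of each GC class. The medians run from -1.98 to 2.25, and miR-93-3p at 59.1% GC and -2.03 lies on the other side of 0 from its class median of 0.82.

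The same question was asked within each knockdown. In shRELA cells, 4 of 9 members passed, against 32.6% of all miRNAs (16.8% higher and 15.8% lower). miR-106a-5p fell 12.8-fold (log2 fold change -3.67, SE 0.307, FDR = 1.11e-11), miR-106b-5p 3.34-fold and miR-93-3p 2.89-fold, and miR-106b-3p rose 2.10-fold (1.07, SE 0.199, FDR = 4.55e-05). The call of miR-106b-3p was lost without adherent shRELA replicate 1 (0.92), adherent shRELA replicate 4 (0.97) or spheroid shRELA replicate 1 (0.66), and with no filter (0.88), median-ratio size factors (0.94), DESeq2 (0.94) and GC-dependent offsets (0.68). In shRELB cells, 3 of 9 passed, against 25.0% of all miRNAs (13.6% higher and 11.4% lower). miR-106a-5p fell 8.95-fold (-3.16, SE 0.308, FDR = 4.53e-10), miR-93-3p 3.46-fold and miR-106b-5p 2.65-fold, the last of which missed the threshold with GC-dependent offsets (-0.92, FDR = 0.0193). miR-106b-3p, at 0.88 (SE 0.199, FDR = 5.84e-04), passed on FDR and not on fold, and on both when only the groups compared were fitted (1.02). miR-363-3p, at 0.20 (SE 0.269) in shRELA and -0.34 (SE 0.264) in shRELB cells, passed in neither. With GC-dependent offsets it was at 0.91 in shRELA cells (FDR = 6.34e-04), short of the fold threshold, and at 0.21 in shRELB cells.

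**Figure D4:**
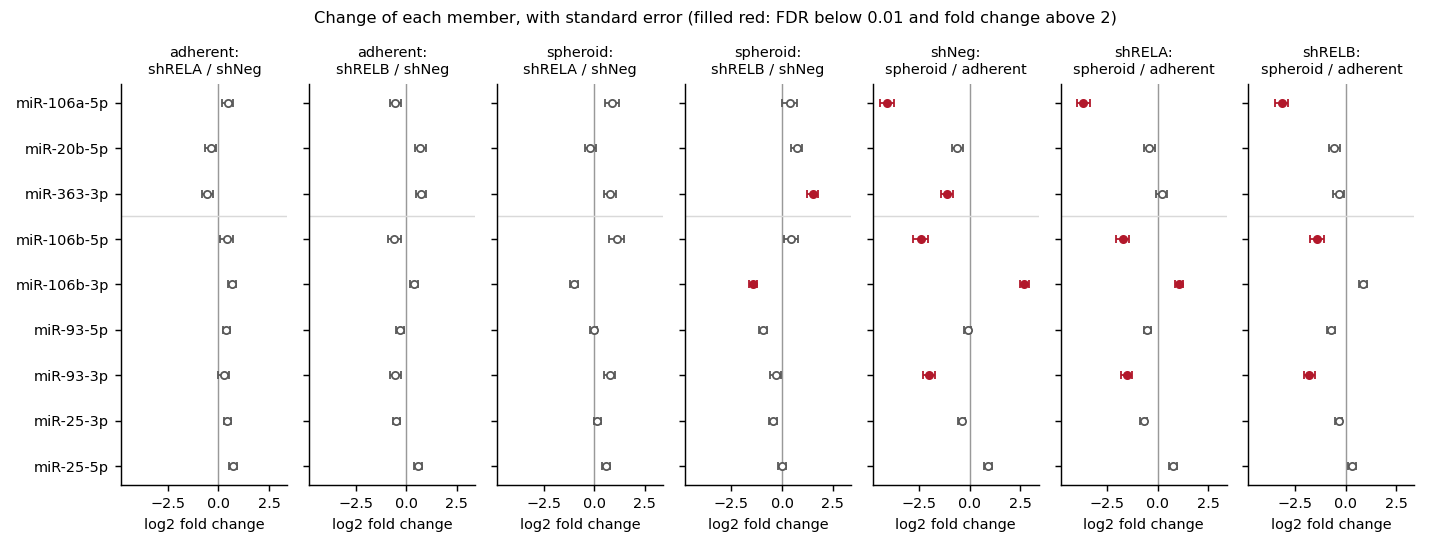
log2 fold change with standard error of each tested member in the 4 knockdown comparisons and the 3 comparisons between cultures (n = 4 libraries a group), filled red where FDR was below 0.01 and the fold change above 2; the grey line divides miR-106a-363 from miR-106b-25. No member passed in the first 3 panels, and miR-106a-5p, miR-106b-5p and miR-93-3p passed as lower in each of the last 3.

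The next comparisons asked what silencing RELA or RELB does in each culture. The control libraries are shared by these comparisons. In adherent culture, 0 of 9 members passed with RELA knockdown, against 3.76% of all miRNAs, and 5 had an unadjusted p below 0.05 by edgeR's quasi-likelihood test, against 18.1% of all miRNAs. With RELB knockdown 0 of 9 passed, against 7.07%, and 6 had an unadjusted p below 0.05, against 24.8%. DESeq2 and limma also called 0 in both, and their shares over all miRNAs are not given here.

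With RELA knockdown in adherent cells, the 6 members of miR-106b-25 had log2 fold changes of 0.26 to 0.71. In miR-106a-363, miR-106a-5p was at 0.46, and miR-20b-5p and miR-363-3p at -0.38 and -0.54. The smallest FDR was that of miR-25-5p (0.71, SE 0.197, FDR = 0.0183), at 404, 421, 541 and 403 CPM against the shNeg values of 205 to 328. These groups did not overlap. With RELB knockdown miR-20b-5p and miR-363-3p were at 0.68 and 0.72, miR-106b-3p and miR-25-5p at 0.36 and 0.57, and miR-106a-5p, miR-106b-5p, miR-93-5p, miR-93-3p and miR-25-3p between -0.31 and -0.59. miR-363-3p was at 119.5, 126.5, 124.0 and 126.9 CPM with shRELB, each above the shNeg maximum of 86.4 (FDR = 0.0657). miR-25-3p was at 9430, 8899, 7390 and 8114 CPM, each below the shNeg minimum of 10810 (-0.50, SE 0.179, FDR = 0.0627). Neither passed the test. Across GC classes the medians of this RELB comparison ran from -0.67 below 35% GC to 0.54 at 65% and over. With GC-dependent offsets miR-363-3p was at 0.91 (FDR = 0.00126) and miR-20b-5p at 0.77 (FDR = 0.00903), both short of the fold threshold. No other member had an FDR below 0.01 there, and the part of base composition was not tested.

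The contrast between the knockdowns was tested directly. In adherent culture, shRELA and shRELB cells differed in 3 of 9 members, against 10.9% of all miRNAs, and these 3 were the tested members of miR-106a-363. miR-106a-5p was at 185.6, 151.7, 104.2 and 253.4 CPM with shRELA and 90.7, 96.1, 69.4 and 90.0 CPM with shRELB. miR-20b-5p was at 82.4, 62.4, 51.6 and 89.4 CPM with shRELA and 182.5, 144.3, 133.2 and 136.3 CPM with shRELB. miR-363-3p was at 53.5, 40.6, 44.2 and 68.0 CPM with shRELA. In each, the shRELA and shRELB values were separate, and how often this holds over all 905 miRNAs was not counted. The tested members of the cluster moved in opposite directions. miR-106a-5p was 2.01-fold higher with shRELA (log2 fold change 1.01, SE 0.265, FDR = 0.00541), while miR-20b-5p was 2.09-fold lower (-1.06, SE 0.273, FDR = 0.00437) and miR-363-3p 2.41-fold lower (-1.27, SE 0.267, FDR = 5.55e-04).

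The call of miR-363-3p held without each of the 8 libraries and under each alternative listed in the methods. That of miR-106a-5p rests on the settings: it was lost with no filter (0.95), a mean minimum of 10 CPM (0.87), library totals (0.73), limma (0.94), the replicate block (0.9948, FDR = 0.0114), only the groups compared (0.95) and GC-dependent offsets (0.87), and kept with median-ratio size factors and DESeq2. The call of miR-20b-5p was lost with limma (-1.07, FDR = 0.0102). The call of miR-106a-5p was also lost without adherent shRELA replicate 1 or 4 or any of the 4 adherent shRELB replicates (log2 fold changes of 0.78 to 1.20 over the 8), and that of miR-20b-5p without shRELA replicate 2 or 3 or shRELB replicate 1 or 2 (-1.24 to -0.92). miR-106a-5p made up 57.7% ± 4.08 (SD, n = 4) of the counts of the miR-106a-363 members with shRELA, 43.0% ± 1.45 with shNeg and 23.985% ± 2.29 with shRELB. In miR-106b-25, miR-25-3p was 1.91-fold higher with shRELA than with shRELB (FDR = 1.81e-04) and miR-93-5p 1.63-fold higher (FDR = 0.00340), both short of the fold threshold. The other 4 members were between 0.14 for miR-25-5p and 0.99 for miR-106b-5p (FDR = 0.0197).

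In spheroid culture, RELA knockdown gave 0 calls among 9 members by edgeR's quasi-likelihood test, against 15.1% of all miRNAs, with 6 at an unadjusted p below 0.05, against 39.3%. DESeq2 and limma each called 1, miR-106b-3p, and their shares over all miRNAs are not given here. That miRNA was at 6404, 3347, 3515 and 3446 CPM with shRELA, all below the shNeg minimum of 7779. Its log2 fold change of -0.98 (SE 0.199, FDR = 2.77e-04) was just short of the fold threshold, and became -1.29 without spheroid shRELA replicate 1, the highest library, -1.04 without spheroid shNeg replicate 3 and -1.04 without replicate 4. It also passed with no filter (-1.01), a mean minimum of 10 CPM (-1.20), median-ratio size factors (-1.16), library totals (-1.38) and the replicate block (-1.003). miR-106b-5p, its partner arm, was at 23.4, 48.3, 36.7 and 32.3 CPM with shRELA, overlapping the shNeg range of 8.42 to 26.0 CPM (1.10, SE 0.359, FDR = 0.0197). With GC-dependent offsets miR-106b-5p was at 0.54 and miR-106b-3p at -0.87, neither past both thresholds. miR-363-3p and miR-106a-5p were at 0.79 and 0.87 (FDR = 0.0335 and 0.0637), and at 0.49 and 0.58 without spheroid shNeg replicate 1. Without spheroid shNeg replicate 1, the calls were those of the reported fit: 0 members with RELA knockdown, and miR-363-3p and miR-106b-3p with RELB knockdown. The remaining log2 fold changes with RELA knockdown were 0.76 for miR-93-3p, 0.56 for miR-25-5p, 0.15 for miR-25-3p, -0.031 for miR-93-5p and -0.19 for miR-20b-5p. Without spheroid shNeg replicate 1 these were, in the same order, 0.46, 0.73, 0.042, -0.031 and -0.45.

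With RELB knockdown in spheroids, 2 of 9 members passed, against 13.4% of all miRNAs. miR-363-3p was at 99.6, 98.8, 92.5 and 102.7 CPM with shRELB, each above the shNeg maximum of 47.0. It rose 2.86-fold (log2 fold change 1.52, SE 0.283, FDR = 9.67e-05), and by 1.21 on the log2 scale without spheroid shNeg replicate 1. The call held without each of the 8 libraries and was lost when only the groups compared were fitted (1.35, FDR = 0.0586). miR-106b-3p was at 3074, 2910, 2525 and 3496 CPM, each below the shNeg minimum of 7779. It fell 2.74-fold (log2 fold change -1.455, SE 0.201, FDR = 8.385e-07), and between -1.59 and -1.25 on the log2 scale with each of the 8 libraries left out. GC content moved with the spheroid knockdown comparisons too. From the lowest GC class to the highest, the medians were 0.58, 0.79, 0.40, -0.22 and -0.70 for RELA. For RELB they were 0.23, 0.79, 0.40, -0.014 and -0.31. miR-363-3p is in the class of 35 to 45% and miR-106b-3p in that of 55 to 65%. With GC-dependent offsets and RELB knockdown, miR-363-3p was at 1.12 and miR-106b-3p at -1.52, both still past the test. What part base composition has here was not tested.

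miR-93-5p, the most abundant member, was at 25990, 25760, 24820 and 36230 CPM with shRELB in spheroids, each below the shNeg minimum of 41980. Its log2 fold change of -0.94 (SE 0.176, FDR = 1.04e-04) passed on FDR and not on fold, and passed on both with a mean minimum of 10 CPM (-1.14), median-ratio size factors (-1.07), DESeq2 (-1.07), library totals (-1.215), only the groups compared (-1.09) and GC-dependent offsets (-1.27). With spheroid shNeg replicate 1 left out, the log2 fold change of miR-93-5p was -0.94. The other 6 members were between -0.44 for miR-25-3p and 0.72 for miR-20b-5p and did not pass. Without spheroid shNeg replicate 1 they were between -0.62 for miR-93-3p and 0.48 for miR-106b-5p. Between the knockdowns in spheroids 1 of 9 members passed, against 6.63% of all miRNAs: miR-93-3p was at 320, 176, 176 and 212 CPM with shRELA and 108, 81.8, 117 and 112 CPM with shRELB. The groups did not overlap (log2 fold change 1.08, SE 0.278, FDR = 0.00615). That call was lost without spheroid shRELA replicate 1 (0.87) or without shRELB replicate 1, 2 or 3 (1.01 to 1.10), and with library totals (0.95, FDR = 0.0159) and limma (1.04, FDR = 0.0196). With library totals miR-20b-5p passed in its place (-1.03, FDR = 0.00814). miR-93-5p was 1.88-fold higher with shRELA than with shRELB (0.91, SE 0.176, FDR = 2.70e-04), short of the fold threshold. The other 7 members were between -0.91 for miR-20b-5p and 0.66 for miR-106b-5p.

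Whether a knockdown acted differently in spheroids and adherent cells was tested as an interaction. For RELA, 1 of 9 members passed, against 7.62% of all miRNAs, and for RELB 1 of 9, against 8.51%. It was miR-106b-3p both times. With RELA knockdown its log2 fold change was 0.65 in adherent and -0.98 in spheroid culture, a difference of -1.62 (SE 0.281, FDR = 1.22e-04). With RELB knockdown it was 0.36 and -1.455, a difference of -1.81 (SE 0.281, FDR = 2.74e-05). Both calls held without each of the 16 libraries concerned, and both rest on the same shNeg libraries. For miR-363-3p the RELA difference was 1.34 (SE 0.387, FDR = 0.0174), and 1.04 (FDR = 0.00644, past both thresholds) without spheroid shNeg replicate 1. It passed in 5 of the 16 fits with a library left out, in which it ran from 1.04 to 1.61, with no filter (1.43) and in DESeq2 (1.12, FDR = 0.00415). The other members lay between -0.42 and 0.70 for RELA and, with miR-363-3p, between -0.63 and 1.03 for RELB, and none of them passed in the reported fit. With library totals miR-93-5p passed for RELB (-1.02, FDR = 3.81e-04).

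The balance of the clusters, summed over their listed members only, changed with culture and shRNA, given here as a description with no test. The miR-106b-25 sum was 243-fold that of miR-106a-363 in adherent shNeg, 327-fold in adherent shRELA and 159-fold in adherent shRELB libraries. In spheroids it was 803-fold with shNeg (596-fold without replicate 1), 533-fold with shRELA and 183-fold with shRELB. In either culture the 4 shRELB libraries had the lowest ratios, from 144 to 175 in adherent and 161 to 206 in spheroid culture, and did not overlap the other groups of that culture. The miR-106a-363 sum was 360 ± 27.8 CPM (SD, n = 4) in adherent shRELB against 295 ± 17.5 in shNeg libraries, and 208 ± 26.4 in spheroid shRELB against 102 ± 50.9. The miR-106b-25 sum was 57464 ± 7794 in adherent shRELB against 71926 ± 6428, and 38463 ± 7552 in spheroid shRELB against 72011 ± 9732.

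The composition of the listed members of miR-106a-363 also differed between cultures. miR-106a-5p made up 43.0% of their counts in adherent and 6.82% ± 0.805 in spheroid shNeg libraries. miR-20b-5p made up 31.5% ± 1.20 and 60.5% ± 5.03 of them, and miR-363-3p 25.4% ± 1.67 and 32.7% ± 4.93. In spheroid shRELB libraries miR-106a-5p was at 4.83% ± 1.78.

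miR-18b-5p, whose hairpin lies between MIR106A and MIR20B, had 0 to 5 counts in the 12 adherent libraries and 0 in all 12 spheroid libraries. Its adherent group means of 0.295 to 0.337 CPM are below the 0.860 CPM that 3 counts were worth in the deepest spheroid library, so a difference between cultures was not detectable at this depth. It lay more than 2 orders of magnitude below its neighbours in adherent culture.

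The miR-17-92 list of 12 arms, of which 11 were tested, gives the setting for the shared seeds. In shNeg cells 7 of the 11 were called lower in spheroids and 0 higher, against 20.9% and 21.3% of all miRNAs, with a median log2 fold change of -2.05 against -0.62 for the members and -0.26 for all miRNAs tested. With shRELA 8 were lower and 1 higher, against 15.8% and 16.8% of all miRNAs, and with shRELB 6 lower and 0 higher, against 11.4% and 13.6%. miR-17-5p fell by 2.73 and miR-20a-5p by 2.61 on the log2 scale in shNeg cells. In spheroid shNeg replicate 1 miR-20a-5p was at 364 CPM, against 1139 to 1768 CPM in the others of its group. miR-106a-5p was 12.4% ± 2.27 (SD, n = 4) of the counts of miR-106a-5p and miR-17-5p together in adherent and 4.58% ± 1.70 in spheroid shNeg libraries. miR-20b-5p was 1.23% ± 0.132 of its sum with miR-20a-5p in adherent and 4.93% ± 0.929 in spheroid libraries. The share of the member thus went down in one near-identical pair and up in the other.

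With knockdown, miR-17-5p rose in spheroids with shRELA (log2 fold change 1.78, FDR = 8.87e-06) and with shRELB (1.35, FDR = 3.46e-04), next to 0.87 and 0.38 for miR-106a-5p, which did not pass. In all, 2 of the 11 were called with shRELA and 1 with shRELB in spheroids, shares near the 15.1% and 13.4% of all miRNAs. In adherent culture the medians of the list were 0.38 and -0.18, against 0.41 and -0.31 for the members and 0.089 and 0.043 for all tested. miR-92a-3p, which shares its seed with miR-363-3p and miR-25-3p, is encoded both in miR-17-92 and by MIR92A2 within miR-106a-363, so its counts cannot be given to 1 cluster. Of the 6 other arms listed for the miR-106a-363 hairpins, 2 passed the filter (miR-92a-2-5p and miR-363-5p), at group means of at most 1.59 CPM.

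By pattern over the 6 group means (root mean square difference of centred log2(CPM + 1), among the 326 tested miRNAs that averaged 10 CPM or more), the nearest miRNAs to miR-106a-5p outside the list were miR-130a-3p (0.285), miR-374b-5p (0.346) and miR-4521 (0.501). Those nearest to miR-106b-5p were miR-641 (0.116), miR-17-3p (0.138) and miR-148b-5p (0.165). Among the members, miR-93-3p was at 0.17 from miR-106b-5p, while the partner arm miR-106b-3p was at 1.83 and ranked 273 of the 326. From miR-106a-5p the nearest member was miR-106b-5p at 0.878, and its own cluster's miR-20b-5p and miR-363-3p were at 1.65 and 1.72.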

How the data were processed

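Libraries of miRNA were prepared from total RNA with a QIAseq kit. The authors removed adapters with Cutadapt and quantified mature miRBase miRNAs with miRDeep2. The table deposited by the authors holds estimated counts for each mature miRNA in each of 24 libraries, not scaled for library size. It is titled as CPM, but its columns sum to different totals and 3.04% of the non-zero values, on 84 miRNAs and 0 members, are not whole. These were rounded. Whether the kit's molecular indices were collapsed is not given in the sources used here, so floors cover counting error only.

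Counts were fitted in R 4.3.3 with edgeR 4.0.16 (TMM scaling, the 6 groups as the only term, common dispersion 0.0888, quasi-likelihood test), after a filter of 1 CPM or more in 4 or more libraries. FDRs were adjusted by Benjamini-Hochberg over all 905 miRNAs that remained. A miRNA was called where the FDR was under 0.01 and the fold change over 2 in either direction. Standard errors were obtained from the log2 fold change and the F statistic. The test was checked on data simulated for RELA knockdown in adherent culture only, at a dispersion below the fitted one. Spheroid comparisons and interactions were not simulated.

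Alternatives were no filter, a mean minimum of 10 CPM, median-ratio size factors, library totals, DESeq2 1.42.0, limma 3.58.1 on log2(CPM + 1), a block for replicate number, a fit of the compared groups alone, an FDR below 0.05, no fold threshold and each library left out. GC-dependent offsets were added after seeing the data. The members and lists were chosen with earlier results of these data known. All 10 members are named, relatives only where a sentence on a member needs them, and the 3 miRNAs nearest in pattern to miR-106a-5p and miR-106b-5p. Sequences were matched by name to RefSeq entries. Raw reads were not analysed here.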

Additional observations from a re-analysis of the deposited data

Results flagged for a closer look

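Of the 54 sets of 4 libraries formed by the 9 tested members and 6 groups, 6 held a library whose gap to the others was above Dixon's critical value, where chance flags about 1 in 20 groups. Spheroid shRELA replicate 1 was one in 3 of these: miR-106b-3p was at 6404 CPM there where its 3 fellow libraries had 3347 to 3515 CPM, miR-93-5p at 71790 against 44600 to 48820 CPM, and miR-25-3p at 11890 against 9177 to 9547 CPM. miR-93-5p was at 36230 CPM in spheroid shRELB replicate 4 against 24820 to 25990. miR-106b-3p was at 1249 CPM in adherent shRELB replicate 3 against 1740 to 1800. miR-25-5p was at 540.7 CPM in adherent shRELA replicate 3 against 402.8 to 421.1.

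The change of miR-106b-3p with knockdown differed between the cultures by the interaction test of edgeR's quasi-likelihood fit, by -1.623 on the log2 scale for RELA and by -1.815 for RELB. It ran from -1.84 to -1.40 for RELA and from -1.92 to -1.63 for RELB with each library left out in turn.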

How the results depend on the processing

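The number of members that passed changed by more than 1.5 times as follows. With RELA knockdown in spheroids (0 in the reported fit), 2 passed with no filter. In the same comparison 1 passed with a mean minimum of 10 CPM, median-ratio size factors, library totals, DESeq2, limma, an FDR below 0.05 or no fold threshold, and 0 to 1 with a library left out. For the RELA difference between cultures (1), 2 passed with no filter, DESeq2 or an FDR below 0.05, and 1 to 2 with a library left out. For the RELB difference (1), 2 passed with library totals. Between the knockdowns in adherent culture (3), 1 passed with limma, 5 with no fold threshold and 1 to 4 with a library left out, and in spheroids (1) 0, 2 and 0 to 2. With no fold threshold, 5 passed between cultures in shRELB cells (3), against 264 of all 905 miRNAs. That setting passed 161 of the 905 with RELA knockdown in spheroids. Between the knockdowns it passed 123 in adherent culture and 76 in spheroids. With RELA knockdown in spheroids, 135 of the 905 passed with median-ratio size factors and 136 with library totals. For the RELB difference 89 passed with library totals. Shares over all miRNAs under the other settings are not given here.

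Of the 2079 member values recomputed, 60 had the opposite sign, in 18 results, and 1 of these had been called. That one is miR-363-3p between cultures in shNeg cells, at 0.0048 with GC-dependent offsets. The others had not passed, and the cause was not tested in any. With a mean minimum of 10 CPM, miR-93-5p was at 0.29 between cultures in shNeg cells, miR-25-3p at -0.066 with RELA and miR-25-5p at -0.21 with RELB knockdown in spheroids, and miR-20b-5p at -0.21 and miR-25-3p at -0.22 in the RELB difference. With median-ratio size factors or DESeq2 these were 0.023, -0.012, -0.13, -0.088 and -0.085, and miR-20b-5p was at -0.021 (-0.022 with DESeq2) in the RELA difference. With library totals the same 6 were 0.34, -0.26, -0.26, -0.37, -0.36 and -0.088. Library totals also gave 0.046 for miR-25-3p between cultures in shNeg cells, -0.067 for miR-25-5p between the knockdowns in adherent culture and -0.18 for miR-93-3p in the RELB difference. With GC-dependent offsets the same 6 were 0.30, -0.22, -0.26, -0.31, -0.33 and -0.22. Those offsets also gave 0.18 for miR-25-3p and 0.064 for miR-20b-5p between cultures in shNeg cells, 0.21 for miR-363-3p between cultures in shRELB cells, -0.022 for miR-106a-5p and -0.086 for miR-106b-5p with RELB knockdown in spheroids, and -0.033 for miR-106a-5p in the RELA difference. With only the groups compared, miR-93-5p was at 0.17 between cultures in shNeg cells and miR-25-5p at -0.14 with RELB knockdown in spheroids.

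With a library left out, miR-363-3p between cultures in shRELA cells ran from -0.020 to 0.36, miR-93-5p with RELA knockdown in spheroids from -0.24 to 0.025, and miR-25-5p with RELB knockdown there from -0.13 to 0.24. In the RELA difference, miR-20b-5p ran from -0.065 to 0.50 and miR-25-5p from -0.25 to 0.097. In the RELB difference, miR-20b-5p ran from -0.21 to 0.37, miR-25-3p from -0.053 to 0.24 and miR-93-3p from -0.057 to 0.61.

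Against TMM, library totals moved the median log2 fold change of all tested miRNAs by -0.41 to 0.43 and median-ratio size factors by -0.19 to 0.12. In spheroids, the share of all calls that was higher went from 49.6% to 34.8% with median-ratio size factors and 19.1% with library totals for RELA knockdown, and from 54.5% to 43.2% and 34.1% for RELB knockdown.

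Of the 36 same-numbered pairs of libraries, 8 correlated above 0.1 (range -0.524 to 0.36) and 9 matched their own number best. Whether same-numbered libraries were handled together cannot be told from this, and the labels do not say. With the replicate block, 1 member passed with RELA knockdown in spheroids in place of 0, and between the knockdowns in adherent culture the call of miR-106a-5p was lost (0.9948, FDR = 0.0114), which left 2 of 3. No other call changed. Depth limits miR-106a-5p in spheroid shNeg libraries (3 to 21 counts each) and miR-18b-5p throughout. In the other spheroid groups miR-106a-5p had 25 to 35 counts with shRELA and 19 to 31 with shRELB. miR-106b-5p was also low in spheroids, at 12 to 34 counts with shNeg, 50 to 92 with shRELA and 43 to 71 with shRELB. miR-363-3p had 13 counts in spheroid shNeg replicate 1.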
